A study of Mus musculus with 9 samples.

Results

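Gene signals of infarcted mouse hearts that had received a cell-derived treatment, either cardiomyocytes or their exosomes, were set against those of infarcted hearts that had received saline. The 6 treated arrays comprised 3 hearts given cardiomyocytes grown out of induced pluripotent stem cells (iCM) and 3 given exosomes precipitated from such cardiomyocytes (iCM-Ex), and the 2 treatments had equal weight. The members are the genes whose 6 treated arrays all lay on the same side of all 3 saline arrays, called genes with no overlap below. Of 19505 genes, 1981 met this rule, 1198 with higher and 783 with lower signals in treated hearts. The rule reads the same arrays as the comparison, so the direction of a member is a description. A limma test of the mean difference ran over all 19505 genes whether or not their arrays overlapped.

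All 9 mice were female SCID mice aged 80 to 100 days, and all had an acute myocardial infarct made by ligating the left anterior descending coronary artery. The saline group (3 hearts) received saline, the iCM group (3 hearts) the cardiomyocytes and the iCM-Ex group (3 hearts) the exosomes. Hearts were taken 4 weeks after infarction, and RNA of the tissue that borders the scar (the peri-infarct region) was measured on Clariom S arrays. SCID mice lack functional T and B lymphocytes but keep natural killer and myeloid cells. No source used here states the species of the stem cells, the doses or the time of injection. The labels call the arrays biological replicates and name no litter, batch or day, so p-values measure the spread between these 9 hearts.

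The border of an infarct holds surviving cardiomyocytes beside fibroblasts, vessels and inflammatory cells that build and remodel the scar. Injected cardiomyocytes mostly do not persist in the heart, and exosomes, small vesicles that carry RNA and protein between cells, are studied as a cell-free form of the same treatment. The comparison therefore addresses which genes respond alike to cells and to their vesicles. In a piece of tissue, fewer cells of a type and less RNA per cell cannot be told apart.

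Cardiomyocyte identity was clear on all 9 arrays, since the mean log2 signal of 34 sarcomere genes lay between 14.41 and 15.73. Control separation, the median log2 signal of positive minus negative control probe sets, was 3.26 to 3.56 in saline and 2.47 to 4.01 in the treated arrays, a range that holds the saline values. The median gene was at 5.44 in saline replicate 1 and at 5.64 to 5.70 on the other 8 arrays. Of the treated arrays, 3 stood apart by markers of tissues next to the heart. Lung markers (12 genes) averaged 10.90 in iCM replicate 1 and reached 8.19 for iCM-Ex replicate 3, while the other arrays had 4.18 to 5.65. In iCM replicate 2 the means of 22 skeletal muscle genes and 15 adipocyte genes were 11.82 and 11.17, against at most 7.77 and 8.82 on the other arrays.

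Against saline, treated hearts had higher signals for many ribosomal and some respiratory chain genes and for a few inflammatory and growth-response genes. They had lower signals for a set of metabolic, signalling, lysosomal and transcription factor genes. The genes with no overlap made up 10.2% of all genes (6.14% higher and 4.01% lower). Limma called 428 genes at an adjusted p of 0.05 (2.19% of all, and 3739 at an unadjusted p of 0.05), 180 higher (0.923%) and 248 lower (1.27%), and 387 of them were genes with no overlap (164 higher, 0.841% of all genes, and 223 lower, 1.14%). The median difference was 1.69 on the log2 scale over the 164 and -1.77 over the 223, against 0.06 over all genes. The call depended on single arrays: without saline replicate 2 no gene passed (2826 at an unadjusted p of 0.05, lowest adjusted p 0.0654), and without the 3 arrays with markers of other tissues none passed either (2628 unadjusted, lowest adjusted p 0.1). Over the 24 leading genes the differences without these 3 arrays were between 0.705 and 1.15 times their value on all 9. These genes were picked for large differences with no overlap, so leaving out treated arrays could not reverse them. Cldn18, named below, kept 0.302 times its value.

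**Figure D1:**
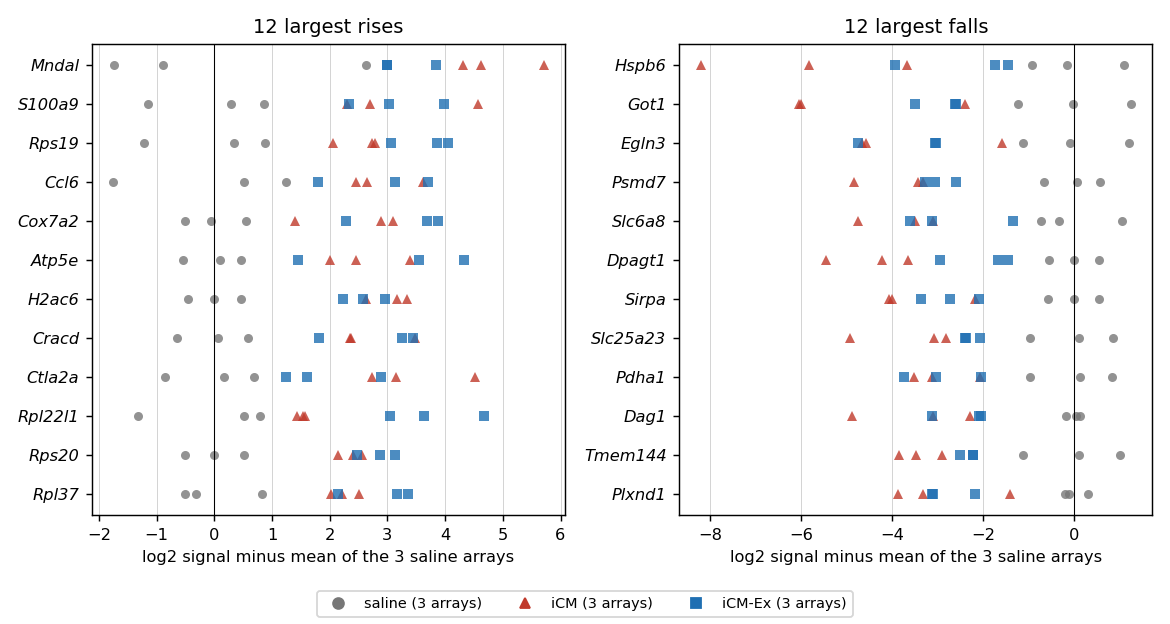
Log2 signal of the 12 largest rises and 12 largest falls on each array, minus the mean of the 3 saline arrays (x axis); each point is 1 array of saline (grey circles), iCM (red triangles) or iCM-Ex (blue squares). In all 24 genes the treated points lie on the same side of the saline points, and the widest gap between treated arrays is that of Hspb6.

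Cytosolic ribosomal protein genes, which encode the structural proteins of the ribosome, were the list with the most called rises. Of 52 measured, 12 had no overlap and were higher (23.1%, beside 6.14% of all genes), and 0 were lower. Limma called 14 higher, beside 0.923% of all genes, of which 10 were genes with no overlap, and 46 of the 52 differences were above 0. The median difference of the list was 0.96, against 0.06 over all genes. The list mean did not separate the groups, at 12.6 to 13.78 in saline and 13.22 to 15.51 in treated hearts. The levels of these genes on an array come from probes that can also bind transcripts of their many near-identical pseudogenes, which makes single members uncertain.

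Rps20, a protein of the small subunit, measured 11.08, 11.58 and 12.09 in saline, 14.15, 13.73 and 13.98 in iCM and 14.05, 14.72 and 14.46 in iCM-Ex. The lowest treated array, iCM replicate 2, stood well above the highest saline array. The gene rose by 2.60 ± 0.28 on the log2 scale (SE, 9 arrays), a 6.06-fold difference with a limma adjusted p of 0.00839, and it lost the call in 1 of 9 leave-one-out fits, that without saline replicate 2 (adjusted p 0.0696). Rps19, also of the small subunit and mutated in Diamond-Blackfan anaemia, measured 6.96, 8.54 and 9.07 in saline, 10.98, 10.93 and 10.24 in iCM and 11.25, 12.05 and 12.24 in iCM-Ex. All 3 exosome arrays were above all 3 cell arrays, and the rise of Rps19 was 3.09 ± 0.45 (adjusted p 0.0148). Rpl37, of the large subunit, went from 11.70, 11.89 and 13.04 in saline to 14.43, 14.71 and 14.24 in iCM and 14.35, 15.38 and 15.57 in iCM-Ex, a rise of 2.57 ± 0.37 (adjusted p 0.0148). Rps24, of the small subunit, rose by 2.15 ± 0.30 and already measured 15.16, 15.77 and 16.40 in saline. Rpl22l1, a paralogue of the large-subunit protein Rpl22 that is not in the list, measured 6.07, 7.91 and 8.19 in saline, 8.92, 8.83 and 8.96 in iCM and 10.44, 11.02 and 12.07 in iCM-Ex and rose by 2.65 ± 0.48 (adjusted p 0.0284). Its cell and exosome arrays formed separate groups, both above saline.

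Ribosomal genes were higher after exosomes than after cells. The median of the 52 genes was 0.32 for iCM minus saline and 1.89 for iCM-Ex minus saline, values that share the saline arrays. In the direct comparison of the treatments, 14 of the 52 were higher in iCM-Ex by limma and 0 lower, beside 0.795% and 0.272% of all genes. Rps25 shows this pattern with a narrow spread: saline measured 12.84, 12.83 and 12.92, iCM 13.46, 13.54 and 13.37, and iCM-Ex 14.50, 15.24 and 14.99. All 3 groups were separate, and iCM-Ex exceeded iCM by 1.45 (adjusted p 0.0386). Control separation was also higher in iCM-Ex (3.63 to 4.01) than in iCM (2.47 to 3.21). With it as a covariate, a fit added after seeing the data, no gene differed between the treatments by limma (1252 at an unadjusted p of 0.05). Because control separation did not overlap between the treatments, this fit cannot tell it from the treatment.

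Promoters were searched on both strands for 6 short motifs, among them the 7 letters CCGGAAG, a core sequence bound by ETS-family factors such as GABPA. The shares given for a gene list cover all its genes with a promoter, whether or not they rose. RefSeq promoters (assembly GRCm38.p6, 250 bases before to 50 after the start of transcription) were at hand for 15691 of the 19505 genes. The letters were in the promoters of 13.2% of all genes, 20.8% of genes with a mean log2 signal of at least 8, 43.9% of the 41 cytosolic ribosomal protein genes with a promoter and 24.6% of the 65 respiratory chain and ATP synthase genes, the last near the share of bright genes. They were in 26% of the promoters of the 127 called genes with no overlap that rose and in 13.9% of those of the 187 that fell. The interferon-stimulated response element (ISRE) was in 6 of the 41 ribosomal promoters (14.6%, against 3.94% of all genes). The ribosomal shares were 9.76% for the E-box CACGTG (9.26% of all genes), 31.7% for CCAAT (42.2%), 4.88% for the cyclic AMP element TGACGTCA (2.63%) and 9.76% for TATAAA (14.6%). Of the ribosomal and respiratory genes called with no overlap, promoter stretches of 10 were read, with entries on 1 chromosome left out of this step. The letters lay within 130 bases before to 20 after a start in 4 of the 10, 3 ribosomal and 1 of ATP synthase. These stretches of 150 bases are shown because they are the ones that hold the letters, in capitals, in genes that rose. Each is read along its gene. Rpl19 lies at chr11:98026580-98026729, Rpl37 at chr15:5116483-5116632 and Rps25 at chr9:44407584-44407733 on the plus strand, and Atp5e at chr2:174464082-174464231 on the minus strand.
Rpl19: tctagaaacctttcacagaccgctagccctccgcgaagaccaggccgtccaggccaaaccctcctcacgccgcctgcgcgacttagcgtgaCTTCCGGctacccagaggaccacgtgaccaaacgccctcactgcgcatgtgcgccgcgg
Rpl37: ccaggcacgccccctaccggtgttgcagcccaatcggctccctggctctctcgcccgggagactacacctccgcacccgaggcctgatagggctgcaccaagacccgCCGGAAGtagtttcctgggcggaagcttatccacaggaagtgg
Rps25: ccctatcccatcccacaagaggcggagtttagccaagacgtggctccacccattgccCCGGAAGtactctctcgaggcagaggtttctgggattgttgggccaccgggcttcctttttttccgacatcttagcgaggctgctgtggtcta
Atp5e: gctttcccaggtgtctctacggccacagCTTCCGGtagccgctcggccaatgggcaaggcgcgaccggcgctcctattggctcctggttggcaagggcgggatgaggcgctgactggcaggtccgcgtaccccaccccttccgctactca
Counted from the start of transcription, the match begins at position -39 in Rpl19, -23 in Rpl37, -73 in Rps25 and -102 in Atp5e, on the gene's own strand in Rpl37 and Rps25 and on the other strand in Rpl19 and Atp5e. Rpl19 has a second start in RefSeq whose stretch does not hold the letters. A match describes the sequence and says nothing about binding.

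Nuclear genes of the respiratory chain and ATP synthase, which make most of the ATP of a cardiomyocyte, were the other large group among the rises. Of 77 measured, 15 had no overlap and were higher (19.5%, beside 6.14% of all genes), 0 were lower, and limma called 5 higher (0.923% of all genes were). The 5 lie in different complexes: Ndufs5 and Ndufa2 in complex I, Cox4i1 and Cox7a2 in complex IV, and Atp5e in ATP synthase. The median difference of the whole list was 0.36, and 50 of 77 differences were above 0. The list as a whole did not separate the groups. Its mean was 13.54 to 14.1 in saline and 13.27 to 14.98 in treated hearts, with iCM replicates 1 and 2 (13.27 and 13.37) below all saline arrays. Most of the 15 are small accessory subunits, such as Ndufa1, Ndufb7, Cox7b, Uqcr10 and Uqcr11.

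Cox7a2, a subunit of cytochrome c oxidase, measured 12.61, 12.01 and 11.56 in saline, 13.45, 14.95 and 15.15 in iCM and 14.35, 15.74 and 15.93 in iCM-Ex. Replicate 1 was the lowest of both treated groups and still above saline. The rise was 2.87 ± 0.47 (7.31-fold, adjusted p 0.0206). Atp5e, the epsilon subunit of ATP synthase, measured 7.92, 7.28 and 8.29 in saline, 9.84, 10.28 and 11.22 in iCM and 9.28, 11.38 and 12.16 in iCM-Ex and rose by 2.87 ± 0.58 (adjusted p 0.0359). Ndufs5 measured 11.21, 12.23 and 11.19 in saline, 14.56, 15.20 and 15.85 in iCM and 12.80, 12.70 and 12.83 in iCM-Ex. It rose by 2.45 ± 0.34 (adjusted p 0.0137), and its cell arrays were all above its exosome arrays, with iCM-Ex below iCM by -2.42 (adjusted p 0.0308). Cox4i1 rose by 2.33 ± 0.37 (adjusted p 0.0206), with iCM arrays at 16.57, 17.06 and 18.19 and iCM-Ex arrays at 15.64, 16.06 and 16.66. Its cell mean was above its exosome mean, but these arrays overlapped and the difference between the treatments did not pass (limma adjusted p 0.245).

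Enzymes that feed the chain gave other values. Of 21 tricarboxylic acid cycle and pyruvate genes 0 had no overlap and were higher, beside 6.14% of all genes. In this list 1 was lower (4.76%, near the 4.01% of all genes), and the median difference was -0.82. That gene, Pdha1, the E1 alpha subunit of pyruvate dehydrogenase, measured 14.33, 13.64 and 12.54 in saline, 10.38, 9.99 and 11.44 in iCM and 10.47, 11.45 and 9.76 in iCM-Ex and fell by 2.92 ± 0.49 (7.58-fold, adjusted p 0.0231). Got1, the cytosolic aspartate aminotransferase of the malate-aspartate shuttle, measured 17.01, 15.73 and 14.53 in saline, 9.72, 9.75 and 13.37 in iCM and 12.26, 13.16 and 13.13 in iCM-Ex and fell by 3.86 ± 0.80 (adjusted p 0.04). Its spread within groups was wide, and without the 3 arrays with markers of other tissues the difference was -2.72. Pfkp, the platelet-type phosphofructokinase of glycolysis, fell by 1.53 ± 0.31 (adjusted p 0.0374). Of 18 glycolysis genes it was the 1 with no overlap and lower, and 1, the kinase Pgk1, was higher by 1.12 without passing (adjusted p 0.134). Each is 5.56% of the list, near the shares over all genes (4.01% lower and 6.14% higher). Acadm, which starts the oxidation of medium-chain fatty acids, differed by -2.04 ± 0.49 without passing (adjusted p 0.0604). Slc25a23, a calcium-dependent carrier of ATP and phosphate into mitochondria, fell by 2.94 ± 0.50, and Slc25a5, an ADP/ATP translocase, by 1.52 ± 0.30.

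**Figure D2:**
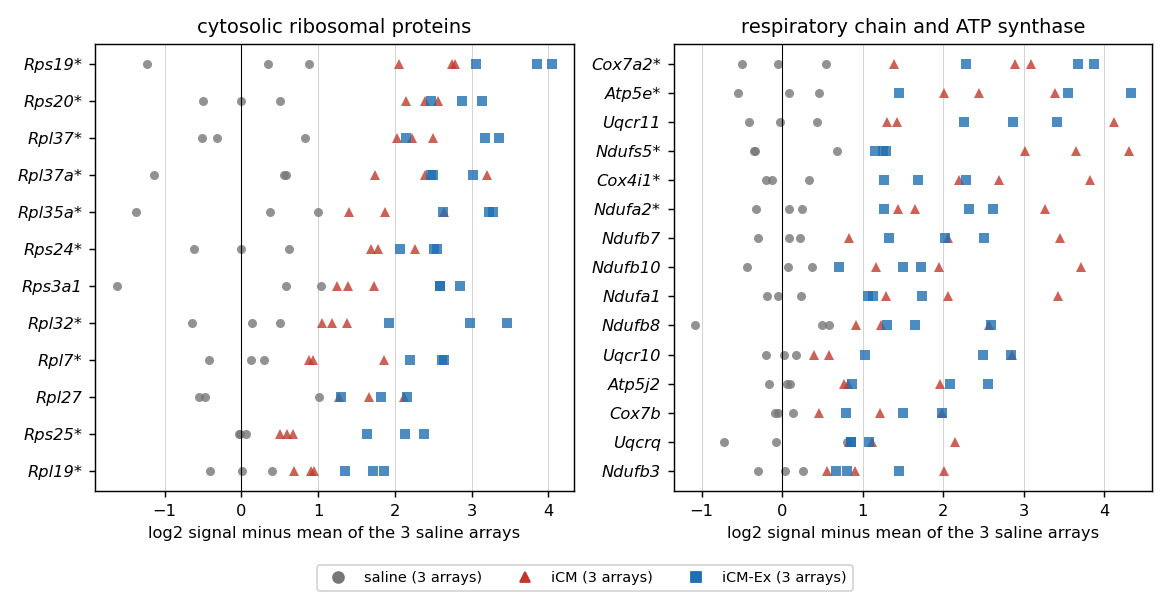
Log2 signal minus the mean of the 3 saline arrays (x axis) for the 12 cytosolic ribosomal protein genes and the 15 respiratory chain and ATP synthase genes with no overlap; points are arrays, and an asterisk marks an adjusted p under 0.05 (limma, any treatment minus saline). In the ribosomal genes the exosome arrays mostly lie to the right of the cell arrays, while in Ndufs5 the cell arrays lie to the right and in Cox4i1 they mostly do.

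Among histone and polymerase genes, H2ac6, a replication-type H2A histone, measured 4.70, 5.15 and 5.61 in saline, 7.78, 8.49 and 8.31 in iCM and 7.72, 7.39 and 8.12 in iCM-Ex. No treated array came near saline, the rise was 2.81 ± 0.29 (adjusted p 0.00839), and of the leave-one-out fits only the fit without saline replicate 2 missed the threshold (adjusted p 0.0654). Its saline mean lies below the negative controls, so the size of the rise is uncertain. Of 11 histone genes measured, 3 were called higher (27.3%, beside 0.923% of all genes) and 0 were called lower. The others called were the replacement histone H3f3a (1.78 ± 0.32) and H4c1 (1.69 ± 0.35). The list as a whole went both ways, with 6 differences above 0, 5 below and a median of 0.03. Macroh2a1 had no overlap and was lower (9.09% of the list, beside 4.01% of all genes). Polr2k, a small subunit shared by all 3 nuclear RNA polymerases, rose by 2.20 ± 0.28 (adjusted p 0.0101), while Med14 and Med1 of the Mediator complex fell by 2.12 ± 0.37 and 1.81 ± 0.34.

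Some single inflammatory genes were among the largest rises. S100a9, a subunit of the neutrophil and monocyte protein calprotectin, measured 3.82, 5.27 and 5.84 in saline, 7.28, 9.55 and 7.68 in iCM and 8.95, 7.31 and 8.0 in iCM-Ex. Its highest arrays were iCM replicate 2 and iCM-Ex replicate 1, and it rose by 3.15 ± 0.60 (adjusted p 0.0307), a size that is uncertain because its saline mean lies below the negative controls. S100a8, the partner subunit, differed by 2.95 ± 0.67 with an adjusted p of 0.0515. Of the 12 neutrophil genes measured these were the 2 with no overlap (16.7%, beside 6.14% of all genes that were higher). In all 3 groups 6 of the 12, such as the granule genes Elane and Camp, lay below the negative controls. The mean of the 12 was 4.32 to 4.86 in saline and 5.17 to 5.96 in treated hearts, and its part in the S100a9 result was not tested. The mean of 2 erythroid genes, Alas2 and Slc4a1, also separated the groups, at 6.23 to 7.51 in saline and 7.65 to 10.92 in treated hearts, and the part of blood in these results was not tested.

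Ccl6, a chemokine of myeloid cells, measured 6.57, 8.82 and 9.56 in saline, 10.78, 11.94 and 10.96 in iCM and 10.12, 11.44 and 12.02 in iCM-Ex and rose by 2.89 ± 0.64 (adjusted p 0.0483). Saline replicate 1 was far below the other saline arrays, without it the difference was 2.02, and the call held in 1 of 9 leave-one-out fits. Of 28 chemokine and cytokine genes 4 had no overlap and were higher (14.3%, beside 6.14% of all genes), and Ccl6 was the one called. Mndal, an interferon-inducible gene of the p200 family, had the largest rise: it measured 6.90, 7.74 and 11.26 in saline, 12.94, 14.34 and 13.25 in iCM and 11.63, 12.47 and 11.63 in iCM-Ex. Its saline arrays spread over more than its distance to the exosome arrays, and the rise of 4.08 ± 0.80 (16.9-fold, adjusted p 0.0335) passed in 3 of 9 leave-one-out fits. Zbp1, a sensor of Z-form nucleic acids, measured 4.17, 3.56 and 5.01 in saline, 6.74, 5.89 and 6.69 in iCM and 5.86, 6.22 and 5.54 in iCM-Ex and rose by 1.91 ± 0.35 (adjusted p 0.0286) from a saline mean below the negative controls, which leaves the size uncertain. Of 32 interferon response genes measured, 4 were called higher (12.5%, beside 0.923% of all genes). In this list 2 had no overlap and were higher (6.25%, near the 6.14% of all genes). The other 3 called, Tgtp2, Iigp1 and Irgm1, are immunity-related GTPases whose exosome arrays reached into the saline range. Igtp, of the same family, had no overlap (saline 5.70 to 6.70, iCM 8.72 to 12.84, iCM-Ex 7.06 to 7.58) with an adjusted p of 0.0541.

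Gzma, a protease of cytotoxic granules, measured 4.77, 4.68 and 5.30 in saline, 8.05, 6.31 and 6.12 in iCM and 6.71, 6.70 and 7.12 in iCM-Ex and rose by 1.92 ± 0.41 (adjusted p 0.0416), again from a saline mean below the negative controls. Of 14 T, B and natural killer cell genes 9 lay below the negative controls in all 3 groups. Gzma was the only one with no overlap (7.14%, near the 6.14% of all genes that were higher). Ctla2a, a cysteine protease inhibitor first found in activated T cells, rose by 2.69 ± 0.51 (adjusted p 0.0307). No macrophage gene of 20 and no MHC class II gene of 7 had no overlap, beside 10.2% of all genes. The macrophage mean was 7.65 to 10.56 in saline and 7.98 to 10.59 in treated hearts. H2-T23, a non-classical MHC class I gene, measured 6.60, 6.02 and 9.62 in saline and between 9.66 and 12.03 in treated hearts, a difference of 3.12 ± 0.76 that did not pass (adjusted p 0.061).

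Immediate early genes, transcription factors and regulators that cells switch on within minutes of a stimulus, had the highest share of genes with no overlap among lists of at least 20 genes. Of 27 measured, 9 were higher in all 6 treated arrays (33.3%, beside 6.14% of all genes), 0 were lower, and 25 of 27 differences were above 0. Limma called 1, Ier2, which measured 5.97, 5.87 and 6.13 in saline, 7.66, 7.5 and 7.65 in iCM and 9.84, 7.44 and 8.44 in iCM-Ex and rose by 2.10 ± 0.43 (adjusted p 0.0381). Fos measured 4.04, 5.21 and 5.44 in saline, 8.58, 5.63 and 6.75 in iCM and 9.01, 7.46 and 7.34 in iCM-Ex, a difference of 2.56 ± 0.63 with an adjusted p of 0.0617 from a saline mean below the negative controls. Egr1 measured 8.35, 9.51 and 9.14 in saline, 11.70, 11.26 and 11.20 in iCM and 14.88, 11.14 and 10.89 in iCM-Ex (2.85 ± 0.75, adjusted p 0.0768). A single array stood above the rest: the mean of the 27 genes was 10.70 in iCM-Ex replicate 1, 7.78 to 8.15 in the other 5 treated arrays and 6.61 to 7.32 in saline.

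Genes of other tissues were few among the called rises. Tnnt1, the slow skeletal troponin T, measured 5.68, 5.84 and 6.10 in saline, 7.75, 9.25 and 8.32 in iCM and 8.36, 8.24 and 8.20 in iCM-Ex and rose by 2.48 ± 0.32 (5.59-fold, adjusted p 0.0101). It was the 1 of 22 skeletal muscle genes with no overlap (4.5%, near the 6.14% of all genes that were higher). Without the 3 arrays with markers of other tissues the difference of Tnnt1 was 2.44. Car4, a membrane carbonic anhydrase of capillary endothelium, rose by 2.45 ± 0.34 (adjusted p 0.0137), and 1 of 23 endothelial genes was called (4.35%, beside 0.923% of all genes called higher). Fabp4, a fatty acid binding protein of capillaries and fat cells, measured 15.35 to 15.72 in saline and 16.10 to 19.86 in treated hearts (adjusted p 0.0602), with its highest value in iCM replicate 2. Cldn18, a lung claudin, met the rule through iCM replicate 1 at 11.29 and iCM-Ex replicate 3 at 8.35, with the other treated arrays at 4.74 to 5.72 and saline at 3.76 to 4.6, and its difference of 2.30 ± 1.33 was 0.69 without the 3 arrays.

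The 12 largest falls began with a muscle chaperone. Hspb6, the small heat shock protein HSP20 of striated and smooth muscle, measured 18.81, 17.56 and 16.79 in saline, 11.89, 9.51 and 14.04 in iCM and 13.78, 15.98 and 16.26 in iCM-Ex. It fell by 4.14 ± 0.91 (17.6-fold, adjusted p 0.0473), its cell arrays spread over more than 4 log2 units, and exosome replicates 2 and 3 came close to saline replicate 3 while replicate 1 did not. Egln3, the prolyl hydroxylase PHD3 that marks hypoxia-inducible factor for degradation, measured 15.58, 14.27 and 13.24 in saline, 9.80, 9.71 and 12.78 in iCM and 9.62, 11.31 and 11.34 in iCM-Ex. It fell by 3.60 ± 0.75 (adjusted p 0.04), nearly equally after cells (-3.60) and exosomes (-3.61). Of 20 hypoxia response genes it was the only one called (5%, beside 1.27% of all genes called lower).

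Psmd7, a lid subunit of the 26S proteasome, had the most even large fall: it measured 15.80, 15.30 and 14.57 in saline, 11.80, 10.39 and 11.91 in iCM and 11.94, 12.64 and 12.17 in iCM-Ex. All treated arrays lay more than 1.9 log2 units below the lowest saline array, and the fall of 3.42 ± 0.40 (10.7-fold, adjusted p 0.00971) was lost only without saline replicate 2 (adjusted p 0.0777). The proteasome as a whole went both ways. Of 33 genes 3 had no overlap and were higher (9.09%, beside 6.14% of all genes) and 5 were lower (15.15%, beside 4.01%). Psmb1 of the core (1.97 ± 0.31) and the ATPase Psmc3 (1.49 ± 0.29) were called higher. Psmd7 and the base subunit Psmd1 (-1.17 ± 0.26) were called lower, and Psmd1 passed in 0 of 9 leave-one-out fits.

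Of the other genes among the 12 largest falls, Slc6a8, the creatine transporter, measured 15.85, 14.45 and 14.06 in saline and between 10.04 and 13.44 in treated hearts and fell by 3.24 ± 0.58 (adjusted p 0.0272). Dag1, dystroglycan, which ties the cytoskeleton to laminin, measured 14.83, 14.73 and 14.52 in saline, 11.59, 9.82 and 12.40 in iCM and 12.60, 12.66 and 11.58 in iCM-Ex and fell by 2.92 ± 0.50 (adjusted p 0.0241). Its saline arrays agreed to within 0.4 log2 units. Sirpa, the receptor of the CD47 signal, fell by 3.07 ± 0.47, Plxnd1, a semaphorin receptor of endothelium, by 2.83 ± 0.49 and the transmembrane protein Tmem144 by 2.86 ± 0.42, each with an adjusted p under the threshold. Dpagt1, which starts the lipid-linked sugar chain for N-glycosylation, measured 10.12, 11.21 and 10.67 in saline, 7.02, 5.22 and 6.45 in iCM and 7.71, 8.99 and 9.21 in iCM-Ex and fell by 3.23 ± 0.46 (9.4-fold, adjusted p 0.0145). It was the 1 gene with no overlap of 25 in the N-glycosylation list (4%, near the 4.01% of all genes that were lower). Dad1 of the same list was also called lower (-3.535), but its treated and saline arrays overlapped.

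Of 29 lysosomal genes measured, which degrade lipids, glycogen and proteins, 5 had no overlap and were lower (17.2%, beside 4.01% of all genes), all 5 were called, and 0 were higher. They encode the calcium channel Mcoln1, the acid alpha-glucosidase Gaa, the tripeptidyl peptidase Tpp1, the cholesterol exporter Npc1 and the acid sphingomyelinase Smpd1. Mcoln1 measured 10.76, 11.41 and 10.61 in saline, 8.68, 7.30 and 8.20 in iCM and 9.44, 9.85 and 9.80 in iCM-Ex and fell by 2.05 ± 0.33 (4.14-fold, adjusted p 0.0206). The mean of the cell arrays was lower than that of the exosome arrays in Mcoln1, Gaa, Tpp1 and Smpd1 and higher in Npc1, and none of the 5 passed the test between treatments. The list median was -0.48, with -0.95 for iCM and -0.01 for iCM-Ex, and no other gene of this list was called. Lysosomal genes outside the list were not counted here.

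Cardiac transcription factors had 4 of 22 genes with no overlap and lower (18.2%, beside 4.01% of all genes) and 0 higher. Gata4, an early regulator of heart development, measured 12.02, 11.70 and 11.23 in saline, 10.29, 7.94 and 9.59 in iCM and 9.38, 10.15 and 9.36 in iCM-Ex and fell by 2.20 ± 0.47 (4.58-fold, adjusted p 0.0413). Prox1, which acts in heart muscle and in lymphatic endothelium, fell by 2.34 ± 0.47 (adjusted p 0.0356), from 10.84, 9.82 and 8.77 in saline to between 6.75 and 8.28. Mef2a and Mef2c, of the myocyte enhancer factor family, differed by -1.82 ± 0.42 and -1.20 ± 0.33 and did not pass (adjusted p 0.0559 and 0.0891). The mean of the 22 genes was 7.85 to 8.29 in saline and 6.92 to 7.84 in treated hearts. Of 34 sarcomere genes 1 had no overlap and was lower (2.94%, near the 4.01% of all genes), the LIM protein Fhl1 (-2.28 ± 0.32, adjusted p 0.0137). The sarcomere list had 21 differences below 0 and 13 above, with a median of -0.23. The part of cardiomyocyte numbers in these results was not tested.

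Genes of growth control moved in both directions. Igf2, a growth factor, measured 8.89, 10.25 and 10.28 in saline, 7.79, 7.33 and 6.84 in iCM and 7.25, 7.93 and 8.07 in iCM-Ex and fell by 2.27 ± 0.38 (4.83-fold, adjusted p 0.0213). The kinase Pdpk1, which activates AKT, fell by 1.29 ± 0.27. Of 25 insulin, IGF and PI3K genes 4 had no overlap and were lower (16%, beside 4.01% of all genes) and 2 were higher (8%, beside 6.14%). Rptor, the scaffold of mTOR complex 1, measured 6.69, 7.63 and 6.86 in saline and between 4.46 and 5.38 in treated hearts and fell by 2.10 ± 0.30 (adjusted p 0.0137), while Rps6kb2, a kinase that the complex activates, rose by 1.63 ± 0.26 (adjusted p 0.0206). The treated Rptor values lie around those of the negative controls, so the size of its fall is uncertain. The cyclins Ccnd2 and Ccnd3, which drive entry into the cell cycle, fell by 2.35 ± 0.35 and 1.63 ± 0.31. Of 28 cell cycle genes no other was called, so 7.14% were called lower, beside 1.27% of all genes.

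Among vascular and matrix signals, the Notch receptor Notch1 and its endothelial ligand Dll4 fell by 1.61 ± 0.28 and 1.63 ± 0.30 (adjusted p 0.0264 and 0.0286). Treated Notch1 values lie below the negative controls, so the size of its fall is uncertain. Of 22 Notch genes 3 had no overlap and were lower (13.6%, beside 4.01% of all genes). In this list 1, the gamma-secretase subunit Psen2, was higher (4.5%, near the 6.14% of all genes). Bmpr2, the type 2 receptor for bone morphogenetic proteins, measured 13.51, 14.82 and 14.79 in saline and between 10.83 and 12.95 in treated hearts and fell by 2.31 ± 0.43 (adjusted p 0.0307). Lama4, a laminin chain of vessel basement membranes, fell by 1.61 ± 0.26 (adjusted p 0.0206), with differences of -1.59 after cells and -1.62 after exosomes. Of 36 matrix glycoprotein and proteoglycan genes 4 had no overlap and were lower (11.1%, beside 4.01% of all genes). These were Lama4, Eln, Tnc and Nid1, and 30 of 36 differences were below 0. Collagens, the main scar proteins, had 1 of 21 genes with no overlap and higher (4.76%, near the 6.14% of all genes) and 0 lower. That gene, Col16a1, was higher by 1.60 ± 0.40 without passing (adjusted p 0.0642). Kcnq1, a potassium channel that repolarises cardiomyocytes, fell by 1.85 ± 0.36, and Nf2, a tumour suppressor upstream of Hippo signalling, by 1.80 ± 0.34.

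Iars, the cytosolic isoleucyl-tRNA synthetase, measured 9.98, 9.75 and 9.81 in saline, 7.59, 7.60 and 7.40 in iCM and 7.47, 8.04 and 8.09 in iCM-Ex. Arrays within each group agreed closely, and it fell by 2.15 ± 0.23 (4.43-fold, adjusted p 0.00839). Of 18 aminoacyl-tRNA synthetase genes 2 had no overlap, both lower (11.1%, beside 4.01% of all genes), the other being Tars (-1.05 ± 0.22, adjusted p 0.04). Mitochondrial ribosomal proteins had 6 of 53 genes with no overlap higher (11.3%, beside 6.14% of all genes) and 2 lower, the latter near the 4.01% of all genes. Of these Mrps24 (1.68 ± 0.26) and Mrps26 (1.80 ± 0.34) were called higher and Mrps2 (-1.93 ± 0.38) was called lower. Of 37 spliceosome and RNA binding genes 4 had no overlap and were higher (10.8%, beside 6.14% of all genes), none of them called. In the same list 3 were lower (8.11%, beside 4.01%). Of these 3 the splicing regulators Mbnl1 and Qk were called and fell by 1.52 ± 0.31 and 1.99 ± 0.44.

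**Figure D3:**
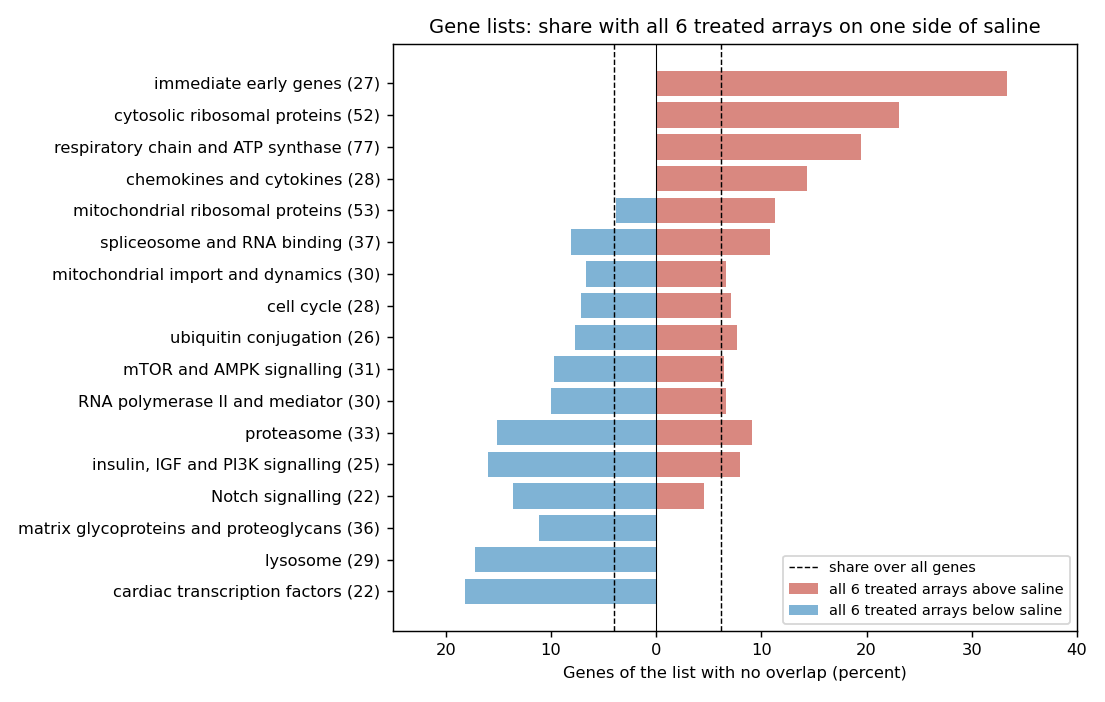
Share of each gene list whose 6 treated arrays all lay above (right) or below (left) the 3 saline arrays, in percent of the genes measured (number in brackets), for the 17 lists with at least 20 genes measured and at least 4 with no overlap; dashed lines mark the shares over all genes, 6.14% above and 4.01% below. Immediate early, ribosomal, respiratory chain and chemokine genes reach right with nothing on the left, and cardiac transcription factor, lysosome and matrix genes reach left with nothing on the right.

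Cells and exosomes differed in the size of the response for some of these genes. The difference itself is taken between the 6 treated arrays, which the rule also reads, and its error is pooled over all 3 groups. Of the 1981 genes with no overlap, 22 differed between the treatments by limma (1.11%, beside 1.07% of all 19505), 18 higher in iCM-Ex and 4 lower. That share is near the share over all genes. The 22 were all among the 387 called against saline, and the change from saline was larger after exosomes in Dll4, Rpl9 and Rps25 and larger after cells in the others. Cell and exosome arrays did not overlap in 328 of the 1981 genes (162 with iCM-Ex above and 166 below), beside 20.2% of all genes. The count of 22 was 43 without iCM replicate 1, 6 and 9 without iCM replicates 2 and 3, 5 without saline replicate 2 and 0 without iCM-Ex replicate 2 or 3.

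Tmem47, a junction protein, measured 12.52, 12.97 and 13.28 in saline, 9.32, 7.74 and 7.80 in iCM and 12.28, 12.47 and 12.28 in iCM-Ex. The exosome arrays lay just under saline and the cell arrays far below, with a difference of 4.06 ± 0.42 between the treatments (adjusted p 0.0125). Zfand2a, a stress-induced zinc finger protein that binds the proteasome, measured 11.67, 11.55 and 11.94 in saline, 8.25, 7.61 and 7.23 in iCM and 10.28, 10.81 and 10.50 in iCM-Ex, so all 3 groups were separate. It fell by 2.61 ± 0.27 against saline (adjusted p 0.00839) and was higher in iCM-Ex than in iCM by 2.83 ± 0.32. Fam174a and Car4 rose more after cells: Car4 measured 7.46, 7.52 and 7.03 in saline, between 10.92 and 11.96 in iCM and 7.60, 8.69 and 8.57 in iCM-Ex, and iCM-Ex was below iCM by -3.01 ± 0.39 (adjusted p 0.0146). Dll4 measured 8.12, 7.84 and 8.65 in iCM and 6.21, 6.99 and 5.97 in iCM-Ex. The exosome arrays of Dll4 were all below the cell arrays (-1.82, adjusted p 0.0444).

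Other genes showed little difference between the treatments. Of the called genes with no overlap, the smallest differences between iCM-Ex and iCM were those of Tomm34, a cochaperone of mitochondrial import (-1.28 ± 0.32 against saline in both), Spata31d1b (1.70 ± 0.34 in both, from a saline mean below the negative controls) and Egln3. The SE of these differences was 0.32, 0.34 and 0.87, so smaller differences between the treatments would not have been seen. Over the 387 called genes the change was farther from saline after cells in 276 (71.3%, beside 55.8% of all genes).

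**Figure D4:**
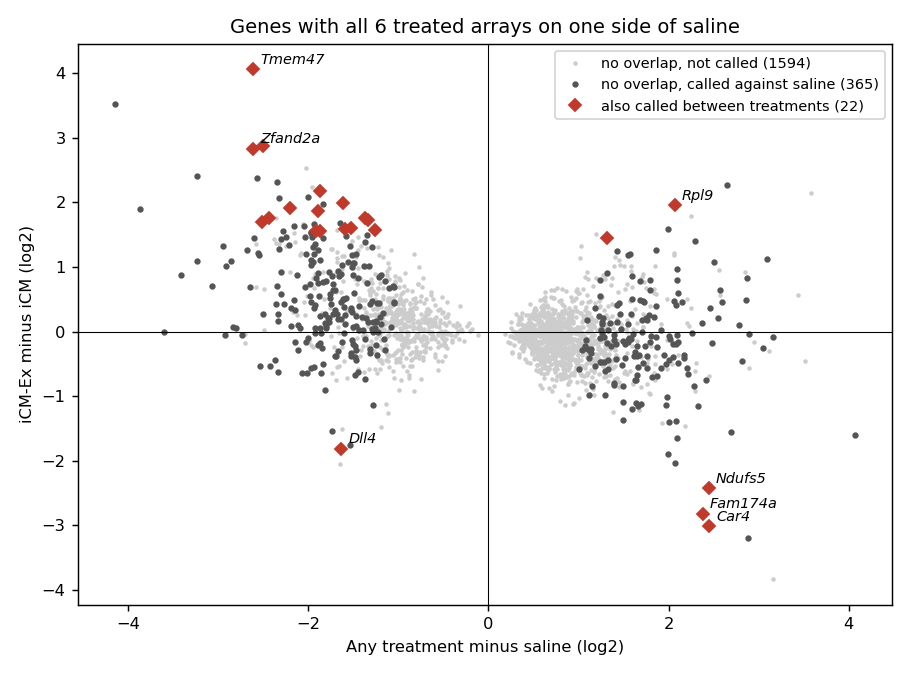
Difference between any treatment and saline (x axis, log2) against the difference between iCM-Ex and iCM (y axis, log2) for the 1981 genes with no overlap; light points are the 1594 genes not called against saline, dark points the 365 called, and red diamonds the 22 that also differed between the treatments. Most diamonds lie at the upper left, genes that were lower than saline and lower after cells than after exosomes.

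The higher and lower genes differed in level and in gene size. The rule did not use gene size, but it reads the signals that give the level, so the difference in level is fixed in part. Of the 1198 higher genes 394 had means below the negative controls in all 3 groups, against 80 of the 783 lower genes, so the size of many small rises is uncertain. Over all genes 7306 of 19505 did so. Among called genes the counts were 3 of 164 and 1 of 223, but in at least 1 group 39 of the 164 and 22 of the 223 lay below the negative controls, and the size of their change is uncertain too. The genomic span in the RefSeq gene table had a median of 8.58 kb over the 164 called rises, 35 kb over the 223 called falls and 17.8 kb over all genes. Of the 164, 29.3% spanned under 5 kb, against 6.28% of the 223 and 21.7% of all genes. Called genes are brighter than most, and over genes with a mean log2 signal of at least 8 the median span was 27.1 kb and 10.2% spanned under 5 kb. At the edge of the rule, Cenps was just inside on the higher side (lowest treated array above the highest saline array by 3.5e-05) and Pabpc5 just outside (0). Prrxl1 was just inside on the lower side (0.000263) and Kdm6a just outside.

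The count of calls moved widely with single arrays. With each array left out it was 0 without saline replicate 2, 42 without iCM-Ex replicate 3, 77 without saline replicate 1, 206 and 234 without iCM-Ex replicates 1 and 2, 245 without iCM replicate 2, 337 without saline replicate 3, 375 without iCM replicate 3 and 430 without iCM replicate 1. Of the 387 called genes with no overlap, 39 (14 higher and 25 lower) passed in 8 of the 9 fits and 0 in all 9. The 39 include H2ac6, Rps20, Polr2k, Tnnt1 and Car4 among the rises and Psmd7, Iars, Dpagt1, Fhl1 and Zfand2a among the falls. In the fits run with an array left out, under quantile normalisation and with the other settings listed below, the genes with no overlap that were tested kept the sign of their mean difference. The rule fixes that sign with arrays left out, 2 groups, array weights or the replicate block, so those settings do not test it. After quantile normalisation 1383 of the 1981 still met the rule.

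**Figure D5:**
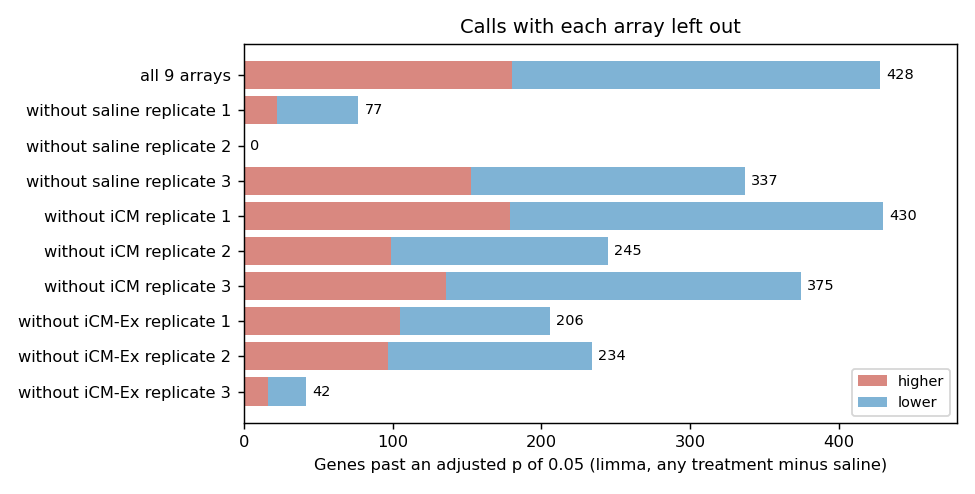
Number of genes past an adjusted p of 0.05 (limma, any treatment minus saline; x axis) with all 9 arrays and with each array left out; bar colours split each count into higher and lower genes. The count is 428 with all arrays, 430 without iCM replicate 1 and 0 without saline replicate 2.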

How the data were processed

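RNA of the peri-infarct region of 9 hearts was measured on Clariom S arrays from 5.5 µg of cDNA per sample, per the labels' protocols. The authors deposited a log2 signal for each probe set; the submitters' processing notes name Affymetrix Expression Console. No source used here states its version or how background and arrays were normalised. The table held 28846 rows. After removal of 6640 control rows and 2634 rows without a symbol, the brightest row per gene was kept (19505 genes). Values spanned 2.25 to 19.93, and 10 genes came within 0.01 of the highest value, where differences are lower bounds.

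Limma 3.58.1 (R 4.3.3) fitted 1 mean per group on the deposited log2 values of all 9 arrays, with moderated variances (4.23 prior and 6 residual degrees of freedom), two-sided tests and Benjamini-Hochberg adjustment over all genes. One contrast set the equally weighted mean of both treatments against saline, the other iCM-Ex against iCM. The fit was tested on simulated data. Errors are moderated SE. The number of arrays limits the precision. Gene lists (63, with 1435 genes measured) were counted, with no set test. The genes named were the 12 largest rises and 12 largest falls among called genes with no overlap (predicted and chemoreceptor genes left out), up to 4 called genes with no overlap per list (or else up to 2 not called), those most unlike (5) and most alike (3) between treatments, and those at the edge of the rule. Other list genes and the 39 genes of the leave-one-out fits were named after their values were seen. The members and lists were chosen with earlier results of these data known. Alternatives were quantile normalisation, a filter on dim genes, all rows, the mean of a gene's rows, 2 groups, array weights, the replicate number as a block and each array left out. Leaving out 3 arrays and control separation as a covariate were added after seeing the data.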

Additional observations from a re-analysis of the deposited data

Results flagged for a closer look

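In 22 genes with no overlap the response to cells and to exosomes differed by limma's test of iCM-Ex minus iCM, adjusted over all 19505 genes. Of the genes that were lower than saline, 16 were less so after exosomes. Their iCM-Ex minus iCM differences on the log2 scale were 4.06 for Tmem47, 2.88 for Ddah1 (an enzyme that breaks down asymmetric dimethylarginine), 2.83 for Zfand2a and 2.17 for Ppp6c. They were 2.0 for Map4k5, 1.92 for Tspan12, 1.86 for Emc10, 1.76 for Ssbp2, 1.76 for Tmem185a, 1.72 for Rhoa (a GTPase of the actin cytoskeleton) and 1.70 for Manea. They were 1.61 for Tm9sf1, 1.60 for Copz2, 1.57 for Ubap1, 1.56 for Usp25 and 1.55 for Ghr, the growth hormone receptor. Dll4 was lower than saline and more so after exosomes, at -1.82. Of the genes that were higher than saline, Car4 (-3.01), Fam174a (-2.82) and Ndufs5 (-2.42) were less so after exosomes, and Rpl9 (1.96) and Rps25 (1.45) more so. Adjusted p-values ran from 0.0125 to 0.0444. Each comparison rests on 3 against 3 arrays. Control separation was higher in iCM-Ex than in iCM without overlap, so the treatment and control separation cannot be told apart. Groups of 3 arrays were not searched for outlying arrays.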

How the results depend on the processing

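The mean difference of the 1981 genes with no overlap kept its sign under every setting that tested them. For arrays left out, 2 groups, array weights and the replicate block the rule fixes this in advance. After quantile normalisation 1383 of the 1981 still met the rule, and the genes with no overlap were 983 higher and 890 lower. The count of 428 called genes was 524 after quantile normalisation (53.1% higher, against 42.1%; the median of all genes moved from 0.06 to -0.00457), 499, 508, 425 and 408 with genes above the median, all rows, the mean of rows and control separation as a covariate, 150 with 2 groups, 1801 with array weights and 0 without the 3 arrays with markers of other tissues. With each array left out it ran from 0 to 430. The replicate block gave 76. Same-numbered arrays deviated together in none of 9 pairs (r from -0.257 to 0.0679). The labels do not say whether the numbers pair the hearts, and deviations within groups of 3 arrays cannot settle it. Genes that differed between treatments (22) were 49 with array weights, 3 with the replicate block, 0 without the 3 arrays and 0 when control separation was a covariate, and 0 to 43 with each array left out. Higher and lower genes with no overlap were 565 and 644 among genes above the median, 2118 and 1375 without the 3 arrays, and 1347 to 2078 and 875 to 1747 with each array left out, where fewer arrays make the rule easier to meet. The cause of the other changes was not tested. In simulated data most changes of 1 log2 unit were missed, so smaller differences cannot be read as absent.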

Other observations

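Gene families grouped by the letters of their symbols, a grouping chosen after the values were seen, differed in how often their members had no overlap. Of 21 such families with at least 50 genes measured, zinc finger genes of the Zfp series, mostly transcription factors, had 27 of 358 lower (7.54%) and 8 higher (2.23%), and 8 were called lower and 0 higher. Rab genes, small GTPases of vesicle traffic, had 12 of 65 higher (18.5%) and 3 lower, with 1 called higher. Transmembrane genes of the Tmem series had 17 of 226 lower (7.52%) and 10 higher, with 7 called lower and 0 higher, and solute carriers of the Slc series 22 of 361 lower and 16 higher, with 7 called lower and 3 higher. Usp genes, which remove ubiquitin, had 8 of 55 lower (14.5%) and 4 higher. The shares over all genes were 4.01% lower and 6.14% higher. Olfactory receptor genes, which are near background in heart, had 53 of 1091 higher and 6 lower.

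Rows of the table without a gene symbol, used in no comparison above, had no overlap in 231 of 2634 with higher (8.77%) and in 87 with lower signals (3.3%).

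Outside the genes with no overlap, 41 genes were called, and 40 of them had cell and exosome arrays that did not overlap each other. Gpx3, a secreted glutathione peroxidase chosen after its values were seen, measured 18.27, 18.57 and 19.00 in saline, 14.81, 14.83 and 15.67 in iCM and 17.50, 18.54 and 18.68 in iCM-Ex. Of its exosome arrays 2 lay in the saline range and 1 below it, and its cell arrays lay below both, so that treated and saline arrays overlapped although its mean difference from saline was -1.94 (limma adjusted p 0.0254).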
